A study of Mus musculus with 16 samples.

Results

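The effect of Parp-2 loss on gene expression was examined in LSK cells, the Lin-Sca1+c-Kit+ fraction of mouse bone marrow that holds haematopoietic stem cells and multipotent progenitors. The members are the 8 LSK arrays of the series' 16: 4 arrays whose titles name Parp-2-/- LSK cells and 4 whose titles name WT LSK cells, compared with irradiation as a covariate. All mice were on the C57BL/6J background and differed in the Parp-2 genotype alone as far as the labels go, WT or Parp-2-/-. Each genotype was represented by 2 unirradiated pools and 2 pools taken 2.5 h after 5 Gy of gamma radiation, and each pool joined cells of at least 3 mice. The other 8 arrays hold myeloid progenitors (MP, Lin-Sca1-c-Kit+) in the same 4 combinations and serve here as a comparison. The sources used here do not give the exons removed in the Parp-2-/- mice, the sex or age of the mice, or whether LSK and MP cells of a pool number came from the same animals.

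Parp-2 is a nuclear poly(ADP-ribose) polymerase. Like its larger relative Parp-1, it is activated by breaks in DNA and attaches chains of ADP-ribose to itself and to neighbouring proteins, which recruits the Xrcc1 complex of base excision and single-strand break repair; the glycohydrolase Parg removes the chains. Stem and progenitor cells of the marrow are among the most radiation-sensitive cells of the body, and the question addressed by these samples is what the loss of Parp-2 changes in them, with and without radiation.

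Expression was measured on microarrays whose rows each summarise the probes of 1 transcript cluster as a log2 intensity, so a difference of 1 is a 2-fold change. All differences below are Parp-2-/- minus WT in log2 units ± the standard error (n = 4 arrays per genotype in LSK cells unless another number is given), from limma with an additive term for irradiation. Rows were called where the p adjusted over the 22961 rows with a gene symbol (Benjamini-Hochberg) was under 0.05. Array medians were 4.84 to 4.92 on the LSK arrays. The deposited table has no background measure, so the array median stands in for it: a signal under that median may be background, and a fold change against it is not measured.

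In LSK cells no gene passed the test on the 8 arrays. With limma, 0 of 22961 rows were called (0%), the smallest adjusted p was 0.448, and 9 rows shared it. At an unadjusted p under 0.05 there were 512 higher rows (2.23%) and 534 lower rows (2.33%). Rows in which all 4 Parp-2-/- arrays lay above all 4 WT arrays numbered 307 (1.34%), and 313 rows (1.36%) lay the other way. A fit that drew its spread from all 16 arrays gave a median standard error of 0.146 in place of 0.172 and called 11 rows (0.0479%), 2 higher and 9 lower, with adjusted p of 0.0422 to 0.0477. On the MP arrays alone the median standard error was 0.105. The 16-array calls therefore rest on a spread lower than that of the LSK arrays at the median row, here and below.

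What the 8 arrays can bound is as much a part of the result as the calls. The differences of all rows were centred near 0 (median -0.015), and their 5th and 95th percentiles were -0.361 and 0.365. For 21159 rows (92.2%) the 95% interval of the genotype difference lay inside a 2-fold change in either direction, and among the 10130 rows above the array median on all LSK arrays this held for 9217. The interval reached 0.388 log2 units to either side of the median row. Differences of 2-fold or more were seen in 35 rows upward and 38 downward, none of them called in the 8-array fit; 2102 rows passed an unadjusted p under 0.05 in the 16-array fit and 1046 in the 8-array fit.

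Irradiation took a larger share of the variance of these arrays than genotype did. Averaged over rows, irradiation accounted for 25.0% of the variance among the LSK arrays, genotype for 12.3%, their combination for 12.6% and the pool number for 12.1%. The first principal component, with 25.4% of the variance, separated irradiated from unirradiated pools (r2 97.1% with irradiation, 0.94% with genotype). The genotype share was close to that of the pool number, so it does not stand out from differences between pools. These shares are descriptions of 8 arrays and carry no test.

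Stem cell genes and the granulocyte and monocyte list fitted the labelled sort. Hlf, a transcription factor of haematopoietic stem cells, read 8.36 to 9.08 on the LSK arrays and 5.71 to 6.57 on the MP arrays. The mean level over 29 measured stem cell genes was 6.52 to 6.88 in LSK and 6.03 to 6.33 in MP cells, while the granulocyte and monocyte list read 6.84 to 7.26 in LSK and 7.76 to 8.35 in MP cells. Kit, the stem cell factor receptor that defines both gates, read 8.78 to 9.46 in LSK and 8.62 to 9.06 in MP cells, so it does not separate them. Ly6a, which encodes Sca1, was on no row with a single symbol. In sorted pools like these, fewer cells of a type and less RNA per cell cannot be told apart.

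A WT unirradiated pool stood apart in Y-linked genes. Eif2s3y, a Y-linked translation factor gene, read 4.73 in WT unirradiated LSK pool 2 and 2.13 to 2.43 on the other 7 LSK arrays, and the Y-linked demethylase gene Kdm5d read 4.37 against 3.08 to 3.42. Xist, the RNA that coats the inactive X chromosome, read 9.50 in that pool and 9.75 to 10.12 in the others. The MP pool of the same group and number also read high for Eif2s3y (6.27 against 2.01 to 2.19). Leaving the LSK pool out of the limma fit gave 0 calls with a smallest adjusted p of 0.105, and values without it stand beside several results below. Whether the high reading in both cell types comes from shared animals is not settled by the labels.

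The targeted gene was lower on every Parp-2-/- array. Parp2 read 5.70 and 6.43 in unirradiated Parp-2-/- LSK cells and 6.14 and 6.77 after irradiation. In WT LSK cells it read 7.52 and 7.40 without and 7.83 and 7.96 with irradiation. The groups did not overlap, and no Parp-2-/- array fell below the array median. The difference was -1.42 ± 0.20, a 2.68-fold lower signal with a 95% interval of -1.87 to -0.97 (limma, adjusted p = 0.448; 0.0422 in the 16-array fit). An exact two-sided permutation test within irradiation states gave p = 0.0556, the smallest value its 36 arrangements allow. Probes of this row may match transcript sequence that the deletion left in place, so the remaining signal checks the labels and measures no protein.

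The Parp2 difference had close values across irradiation states and cell types. It was -1.40 in unirradiated and -1.44 in irradiated LSK cells, and the difference of these differences was -0.04 ± 0.42 (adjusted p = 0.999, limma). In MP cells Parp2 differed by -1.44 ± 0.13 and was called (adjusted p = 0.00642). The LSK difference minus the MP difference was 0.02 ± 0.26 (adjusted p = 0.995), so this contrast bounds a cell type difference only to within the error given. Without WT unirradiated pool 2 the LSK difference was -1.45 (adjusted p = 0.715).

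The start of Parp2 lies beside Rpph1, the gene of the RNA subunit of RNase P, from which it is transcribed in the opposite direction. The RefSeq window around the Parp2 start (250 bases before and 50 after, GRCm38.p6, chr14:50807666-50807965, plus strand) is printed because 106 of its 300 bases lie inside Rpph1. The targeted gene and its neighbour share that part of the window only. The window of Ccnb1ip1 (chr14:50795679-50795978, minus strand), the gene beyond Rpph1, is printed because that gene was the only row whose genotype difference was called to differ between LSK and MP cells.
Parp2: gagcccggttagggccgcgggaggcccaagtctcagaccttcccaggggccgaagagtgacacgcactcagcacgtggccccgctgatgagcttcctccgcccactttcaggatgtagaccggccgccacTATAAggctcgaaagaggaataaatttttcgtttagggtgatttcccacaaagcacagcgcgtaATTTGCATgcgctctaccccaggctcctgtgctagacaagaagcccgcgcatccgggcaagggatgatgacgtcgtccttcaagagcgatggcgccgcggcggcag
Ccnb1ip1: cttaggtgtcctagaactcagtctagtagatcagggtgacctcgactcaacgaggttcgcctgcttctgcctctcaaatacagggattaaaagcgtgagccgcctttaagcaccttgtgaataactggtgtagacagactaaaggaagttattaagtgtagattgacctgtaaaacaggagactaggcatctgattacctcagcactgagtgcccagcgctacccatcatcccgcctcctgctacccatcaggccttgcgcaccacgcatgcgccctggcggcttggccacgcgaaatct
Capitals mark TATAA, the core of a TATA box, at bases 131 to 135 of the Parp2 window, and ATTTGCAT, the octamer read by Oct transcription factors, at bases 195 to 202. Both strands were searched, the motifs do not overlap, and neither was found in the Ccnb1ip1 window. TATAA occurs in 24.9% and ATTTGCAT in 1.74% of the 32851 RefSeq windows of this length. A match of letters is a description and shows no binding.

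Among the genes around Parp2, those above background in LSK cells had no called difference. Rpph1 read 9.16 and 9.49 in unirradiated Parp-2-/- LSK cells and 8.49 and 10.56 in irradiated ones, against 9.03 and 8.93 and then 9.34 and 10.67 in WT. The ranges overlapped, and the difference was -0.07 ± 0.45 (95% interval -1.09 to 0.95, adjusted p = 0.996), an interval that does not bound it to within a 2-fold change. Apex1, the endonuclease that cuts at abasic sites, differed by 0.09 ± 0.16, and Ttc5, a p300 cofactor, by 0.31 ± 0.24. Osgep, which encodes a tRNA-modifying subunit of the KEOPS complex, differed by -0.47 ± 0.16 and -0.26 ± 0.22 on its 2 rows and was not called on either. The second row rested on WT unirradiated pool 2, which read 7.03 against 6.02 to 6.21 on the other WT arrays, and without that pool the rows gave -0.34 and -0.04. In MP cells the Osgep rows were also lower, by -0.43 ± 0.09 and -0.22 ± 0.09, and not called (limma, adjusted p = 0.386 and 0.846). Klhl33, Olfr748 and Olfr749 read below the array medians in both genotypes.

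Ccnb1ip1, which encodes the ubiquitin ligase HEI10 of meiotic crossovers, stood out through the MP arrays. In LSK cells its row read 3.96 and 4.02 without and 4.49 and 4.51 with irradiation in Parp-2-/- cells, and 3.77, 3.58, 3.45 and 3.89 in the same order in WT cells. The LSK groups did not overlap, but all 8 values were below the array medians, so the LSK difference of 0.58 ± 0.16 (adjusted p = 0.991) has no measured size. In MP cells the row read 6.83, 7.38, 6.93 and 6.91 in Parp-2-/- cells against 3.29 to 3.47 in WT cells, a difference of 3.67 ± 0.13 (adjusted p = 1.22e-06) against a WT level at background. The LSK difference was lower than the MP difference by 3.09 ± 0.19 (-3.09, adjusted p = 2.96e-05 in the 16-array limma fit).

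**Figure D1:**
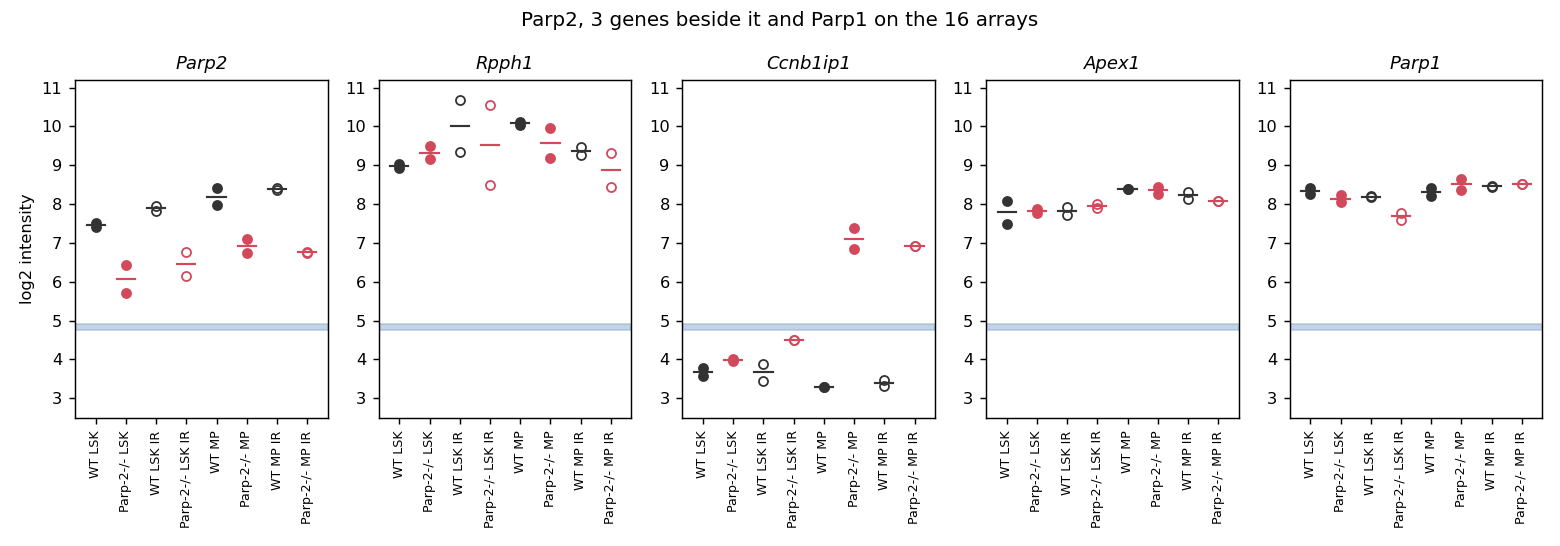
Log2 intensity (vertical axis) of Parp2, of its neighbours Rpph1, Ccnb1ip1 and Apex1, and of Parp1 on the 16 arrays, by group (horizontal axis). Each point is 1 array, filled without and open with irradiation, red for Parp-2-/- and black for WT, each line is the mean of the group's 2 pools, and the blue band spans the 16 array medians. Parp2 is lower on every Parp-2-/- array of both cell types, and Ccnb1ip1 rises above the band only on the 4 Parp-2-/- MP arrays.

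Within the PARP family Parp2 itself was the only member whose groups did not overlap. Over all rows 1.34% lay higher and 1.36% lower without overlap, so in a list of this size the count says little about the other members. Of 21 listed polymerases and enzymes that remove ADP-ribose, 20 were measured, 0 were called (1 in the 16-array fit, Parp2), and 14 had values below 0 and 6 above, with a median of -0.111 against -0.015 over all rows. The median of this list, which includes Parp2, stayed below 0 under a further quantile normalisation (-0.140), under median centring (-0.094) and with any array left out (-0.196 to -0.061). In MP cells it was -0.009.

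Parp1, the main nuclear poly(ADP-ribose) polymerase, was not called. It read 8.22 and 8.04 in unirradiated and 7.59 and 7.77 in irradiated Parp-2-/- LSK cells, against 8.42, 8.26, 8.20 and 8.18 in WT. The groups overlapped by 1 array, the unirradiated Parp-2-/- pool at 8.22. The difference was -0.36 ± 0.13, with a 95% interval of -0.66 to -0.06 (adjusted p = 0.991), and it was -0.21 in unirradiated and -0.51 in irradiated cells. In MP cells Parp1 differed by 0.12 ± 0.10, and the LSK minus MP contrast was -0.48 ± 0.15 (adjusted p = 0.956).

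The other family members gave differences under 0.5. Parg, which cuts the polymer, read 7.10 and 7.18 in unirradiated and 8.25 and 7.98 in irradiated Parp-2-/- cells, and 7.17, 6.88, 7.92 and 7.67 in WT. Its levels were higher on the irradiated arrays of both genotypes, and the genotype difference was 0.22 ± 0.14 (adjusted p = 0.991). The largest uncalled differences below 0 after Parp2 were those of Oard1 (-0.45 ± 0.20), a hydrolase that removes the last ADP-ribose, Parp9 (-0.43 ± 0.19) and Parp3 (-0.40 ± 0.15), the third DNA-dependent family member. The tankyrases Tnks and Tnks2, which act at telomeres, differed by 0.10 ± 0.13 and -0.10 ± 0.13.

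Base excision and single-strand break repair, the pathway Parp-2 serves, was near 0. Of 22 measured genes 0 were called, 0 had an unadjusted p under 0.05, 12 lay above 0 and 10 below with a median of 0.057 (-0.026 without WT unirradiated pool 2), and 21 had a 95% interval inside a 2-fold change. The scaffold Xrcc1 differed by 0.06 ± 0.16, the ligase Lig3 by -0.16 ± 0.19 and the polymerase Polb by 0.22 ± 0.32. Tdp1, which frees stalled topoisomerase I from DNA, had the list's highest value and the widest error (0.67 ± 0.38).

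**Figure D2:**
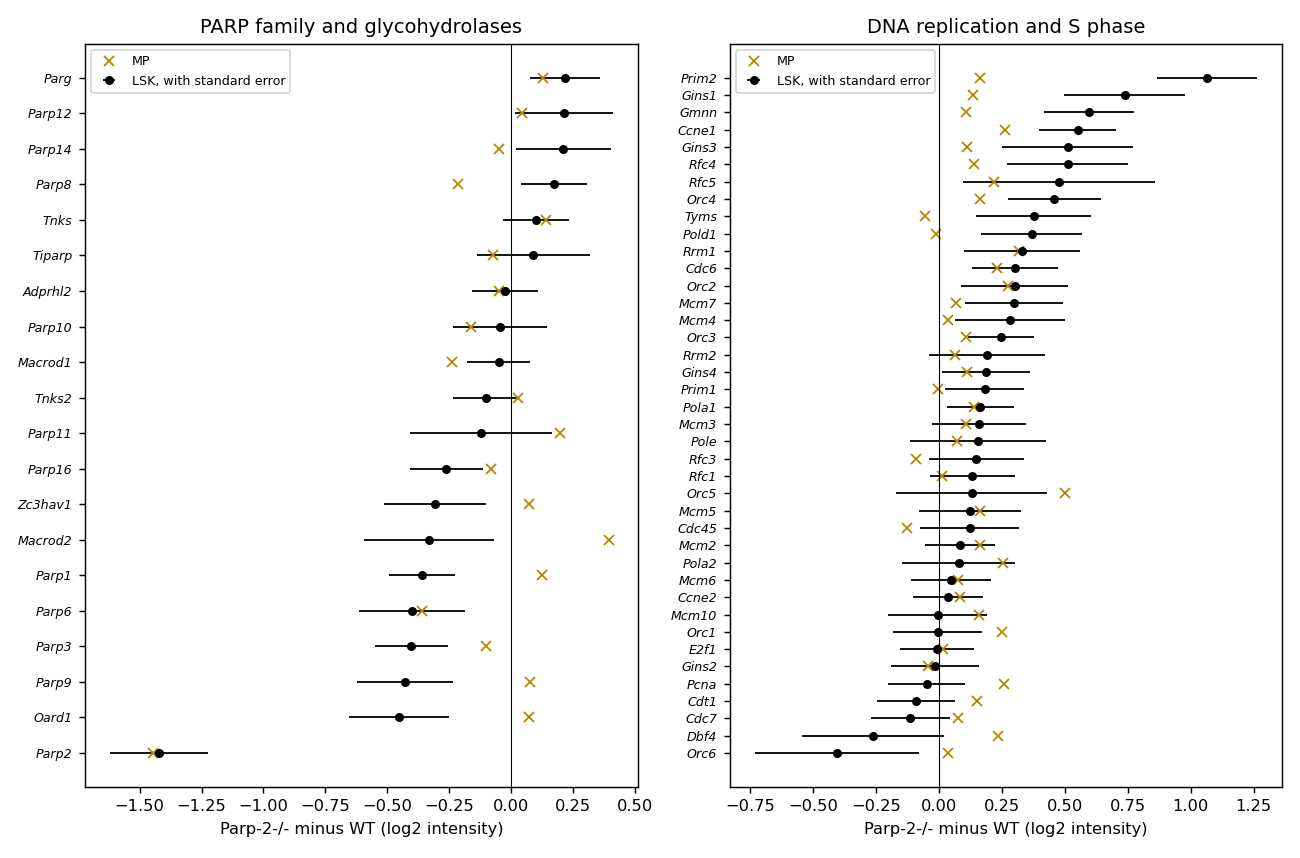
Genotype difference (horizontal axis, Parp-2-/- minus WT, log2 intensity) of each measured member of the PARP family and of the DNA replication list (vertical axes). Black points with bars are LSK cells ± the standard error (8 arrays), and crosses are MP cells (8 arrays); in the family Parp2 stands alone at -1.42, and in the replication list 31 of 40 LSK values lie right of 0 with Prim2 the highest at 1.06.

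The rows that most separated the genotypes were taken as those with the smallest p among eligible rows whose groups did not overlap, 12 in each direction. Eligible rows had 1 symbol and lay above the array median on every LSK array of at least 1 genotype. Iftap, Rpl21 and Slc44a1 met this level only through Parp-2-/- cells, where they were higher, so their level there adds no support. None of the rows taken was called in the 8-array fit. With 307 and 313 rows without overlap in all, these are the top of a ranking and no set of changed genes. Their signs were the same in all alternative fits that tested them. Rows chosen without overlap can hardly change sign when the same arrays are refitted, so this adds no support. Values are given without and then with irradiation.

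Of the higher rows, Iftap, which encodes a protein bound to the intraflagellar transport machinery, had the largest difference. It read 5.60, 6.17, 6.61 and 5.46 in Parp-2-/- cells and 3.99, 4.22, 4.36 and 4.71 in WT cells. All 4 WT values were below the array medians, so the difference of 1.64 ± 0.25 (adjusted p = 0.448) is no measured fold. A further Iftap row, above the median on all 8 arrays, differed by 0.42. In MP cells the first row differed by -0.94 ± 0.24 (adjusted p = 0.559), and the LSK minus MP contrast was 2.58 ± 0.38 (adjusted p = 0.119).

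Slc44a1, a choline transporter, read 5.60, 5.97, 6.11 and 5.61 in Parp-2-/- cells and 5.01, 4.26, 4.27 and 4.08 in WT cells. Every Parp-2-/- array lay above every WT array. Because 3 of the 4 WT values were below the array medians, the difference of 1.42 ± 0.22 (adjusted p = 0.448) is no measured fold. The row was 1 of the 2 higher rows called in the 16-array fit (adjusted p = 0.0477). A further row of the gene gave 0.34, also without overlap.

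Rwdd4a, an RWD-domain protein gene, was the other higher row called in the 16-array fit (adjusted p = 0.0422). It read 7.34, 7.49, 7.54 and 7.68 in Parp-2-/- cells and 6.47, 6.33, 7.0 and 7.07 in WT cells, a difference of 0.79 ± 0.14 in the 8-array fit (adjusted p = 0.61). The WT arrays were higher with irradiation than without, which left a difference of 1.02 in unirradiated and 0.57 in irradiated cells.

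Prim2 encodes the large subunit of DNA primase, which starts every new strand at the replication fork. It read 6.74, 6.73, 6.31 and 7.14 in Parp-2-/- cells and 5.58, 5.67, 5.44 and 5.96 in WT cells, without overlap and with 1.11 in unirradiated and 1.02 in irradiated cells. The difference was 1.06 ± 0.20 (2.09-fold, adjusted p = 0.61), and 0.16 ± 0.13 in MP cells.

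Mat2b, the regulatory subunit of methionine adenosyltransferase, read 7.82, 7.35, 7.96 and 7.68 in Parp-2-/- cells and 6.27, 6.88, 6.98 and 6.92 in WT cells, a difference of 0.94 ± 0.18. Aven, an inhibitor of the apoptosome, read 7.59, 7.31, 7.89 and 7.34 against 6.10, 6.81, 6.87 and 6.29, a difference of 1.02 ± 0.22. Both were above background on all arrays and neither was called (adjusted p = 0.61 and 0.766). The remaining higher rows were Atp6v1f (1.18 ± 0.25), a subunit of the vacuolar proton pump, Msantd2 (0.86 ± 0.17), Lsm5 (0.77 ± 0.15), a subunit of the ring that binds U6 and decaying mRNA, and Atad1 (0.67 ± 0.14), a mitochondrial extractase. Atp6v1f had a further, brighter row at 0.54, and Lsm5 had 2 further rows at 0.08 and 0.50. The genotypes overlapped on each of these further rows.

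The Myo9a and Rpl21 rows of this ranking were not matched by the other rows of their genes. Myo9a, which encodes an unconventional myosin, read 7.59, 7.31, 6.55 and 7.0 in Parp-2-/- cells and 5.69, 6.53, 5.11 and 5.67 in WT cells, a difference of 1.36 ± 0.22, while its 12 other rows gave -1.06 to 0.72. Rpl21, a ribosomal protein gene with near-identical copies, differed by 1.0 ± 0.14 on a row whose WT values were below the array medians, and its 8 other rows gave -0.81 to 0.35.

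Of the lower rows besides Parp2, Icam4 and Apmap had the smallest p. Icam4, an adhesion molecule of red cell precursors, read 5.23, 5.41, 4.79 and 5.28 in Parp-2-/- cells and 6.04, 6.49, 6.04 and 6.08 in WT cells. The Parp-2-/- value of 4.79 was below the array median. The difference of -0.99 ± 0.16 was nearly the same in unirradiated (-0.95) and irradiated cells (-1.03) and was called in the 16-array fit (adjusted p = 0.0451; 0.448 in the 8-array fit). In MP cells Icam4 differed by 0.29 ± 0.10, and the contrast of cell types was -1.28 ± 0.20 (adjusted p = 0.171).

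Apmap, a membrane glycoprotein first described in adipocytes, read 5.24, 4.66, 4.77 and 5.11 in Parp-2-/- cells and 5.97, 6.04, 5.87 and 5.84 in WT cells. The WT arrays lay close together, and 2 of the Parp-2-/- arrays lay below the array medians. Its difference was -0.99 ± 0.16 in the 8-array fit (adjusted p = 0.448), and it was not called in the 16-array fit.

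Slc25a32, the mitochondrial folate and FAD carrier, read 4.37, 5.30, 4.84 and 5.49 in Parp-2-/- cells and 5.99, 6.16, 6.00 and 6.07 in WT cells, a difference of -1.05 ± 0.23 (adjusted p = 0.822) with 2 Parp-2-/- values below the array medians. Cpeb4, which binds polyadenylation elements of mRNA, read 5.59, 5.70, 5.51 and 5.40 against 6.92, 6.73, 5.87 and 6.33, a difference of -0.91 ± 0.17 that was called in the 16-array fit (adjusted p = 0.0451). The Parp-2-/- arrays of Cpeb4 lay close together, and the WT arrays were lower with irradiation than without. Eif2b2, a subunit of the exchange factor for translation initiation factor 2, read 6.40, 6.42, 6.24 and 6.24 against 7.19, 7.07, 6.70 and 7.11, a difference of -0.69 ± 0.13 (adjusted p = 0.61).

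The remaining lower rows were Rps4l (-0.83 ± 0.15), Gatad2a (-0.75 ± 0.16), a NuRD repressor subunit, Mblac1 (-0.75 ± 0.17), Nlrc5 (-0.80 ± 0.17), the transactivator of MHC class I genes, Phc3 (-0.57 ± 0.13), a Polycomb subunit, and Dennd4a (-1.09 ± 0.25). Rps4l and Mblac1 were called in the 16-array fit (adjusted p = 0.0422 and 0.0477). Mblac1 and Dennd4a each had 1 Parp-2-/- value below the array median. A further row of Phc3 went the opposite way, at 0.44. The 18 further rows of Nlrc5 (-0.70 to 0.39) and the 8 further rows of Dennd4a (-0.42 to 1.08) lay on both sides of 0.

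The smallest p of all rows belonged to Snora44, a small nucleolar RNA gene outside the naming rule and named after its values were seen. It read 7.04, 7.50, 6.70 and 6.65 in Parp-2-/- cells and 8.93, 8.23, 8.52 and 8.40 in WT cells, a difference of -1.55 ± 0.20 (adjusted p = 0.448; 0.0422 in the 16-array fit). In MP cells the row differed by 0.45 ± 0.19 (adjusted p = 0.814). The other rows called in the 16-array fit were Cnpy3 (-0.84 ± 0.16), an endoplasmic reticulum chaperone of Toll-like receptors, Zc3h7a (-0.66 ± 0.14) and a row with several symbols; the Cnpy3 and Zc3h7a groups overlapped.

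**Figure D3:**
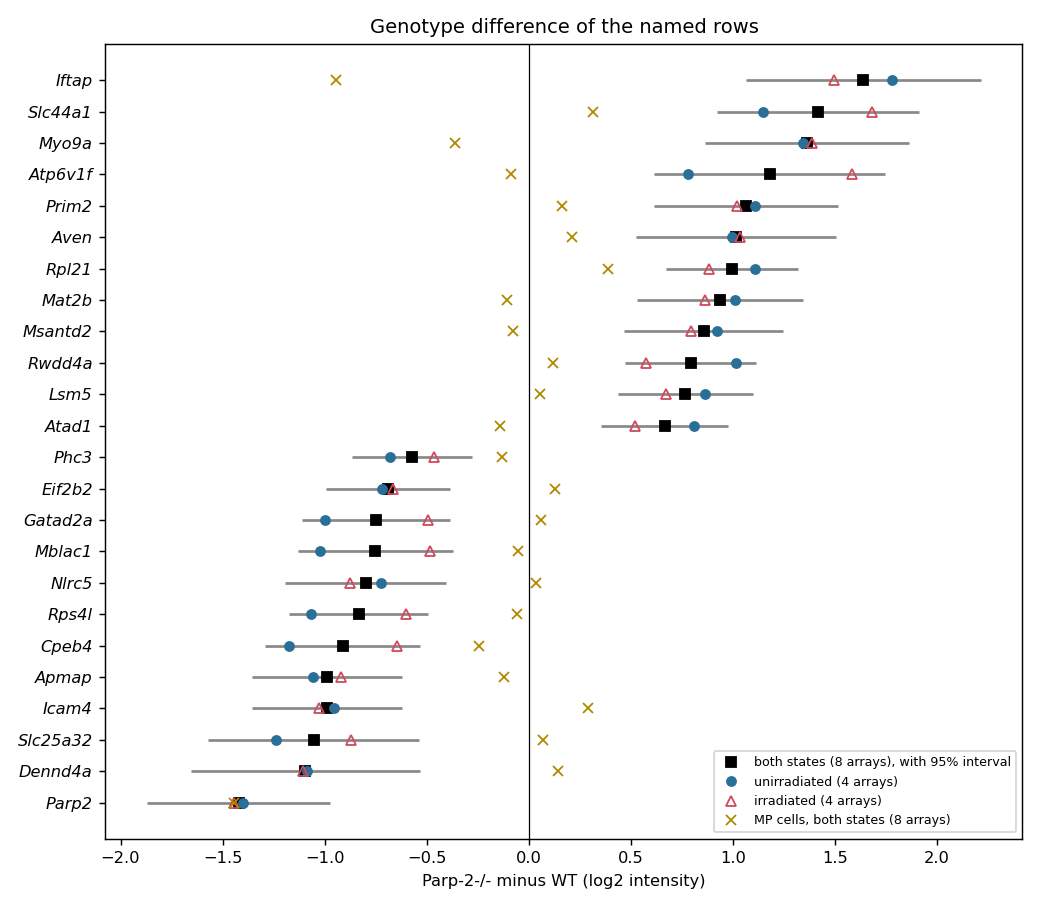
Genotype difference (horizontal axis, Parp-2-/- minus WT, log2 intensity) of Parp2 and the 23 other rows with the smallest p among eligible rows without overlap, 12 in each direction (vertical axis). Eligible rows had 1 symbol and lay above the array median on every LSK array of at least 1 genotype. Squares with bars are the 8 LSK arrays with the 95% interval, circles the 4 unirradiated and triangles the 4 irradiated LSK arrays, and crosses the 8 MP arrays; both LSK states lie on the same side of 0 for each row, as the choice of rows requires, and the Parp2 cross lies at -1.44.

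Across all rows the genotype difference of unirradiated LSK cells did not track that of irradiated LSK cells. The pools of the 2 states share no array, and the correlation of the differences across the 22961 rows, which are not independent replicates, was -0.011, with 50.1% of rows of the same sign. A difference of 2-fold or more was seen in 332 rows without and in 299 rows with irradiation, of which 16 rows had it in both states in the same direction and 24 in opposite directions. Parp2 was 1 of the 16.

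**Figure D4:**
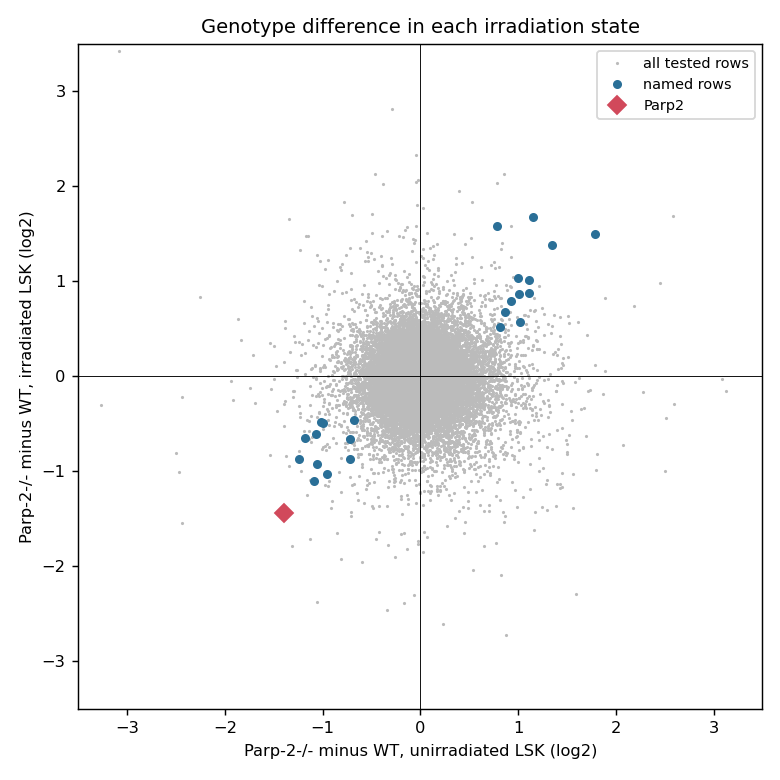
Genotype difference (Parp-2-/- minus WT, log2) in unirradiated LSK cells (horizontal axis, 4 arrays) and irradiated LSK cells (vertical axis, 4 arrays). Grey points are the 22961 tested rows, blue points the named rows without overlap and the red diamond Parp2, at -1.40 and -1.44; the grey cloud is round, with a correlation of -0.011 over rows.

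No row's genotype difference was called to depend on irradiation in the 8-array fit. The interaction gave 0 of 22961 calls (0%) in limma, with a smallest adjusted p of 0.381 and 1066 rows at an unadjusted p under 0.05. The 16-array fit called 2 rows, the olfactory receptor gene Olfr652, named after its values were seen, and a row with several symbols. The 5 named rows with the smallest interaction p were Bmp2k, Dmac2, Commd6, Tceanc2 and Zfp35.

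These 5 genes gave differences of opposite sign in the 2 states, and none was called (adjusted p = 0.736 to 0.784). Bmp2k, a kinase of clathrin-mediated traffic, read 7.09 and 6.88 in unirradiated Parp-2-/- cells and 5.55 and 5.99 in WT, but 5.52 and 5.32 against 6.31 and 6.51 after irradiation. Its difference was therefore 1.21 without and -0.99 with irradiation, an interaction of -2.20 ± 0.32. Commd6 had 1.26 and -0.96, Tceanc2 1.80 and -0.82, and Zfp35, a zinc finger gene, 1.01 and -0.78. Dmac2, an assembly factor of mitochondrial complex I, went the other way, with -0.34 and 1.53.

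The LSK differences were also compared with those of the MP arrays, which share no array with them. In MP cells 4 of 22961 rows were called (0.0174%), 1 higher and 3 lower, with 1320 rows at an unadjusted p under 0.05. These were Ccnb1ip1, Parp2, Rnase12 and a row with several symbols, and 1 call was left without irradiated Parp-2-/- MP pool 1 or 2 or irradiated WT MP pool 2. The spread of the differences over rows was wider in LSK cells (SD 0.233) than in MP cells (SD 0.152), and the median standard error was 0.172 against 0.105. The correlation of the LSK and MP differences across rows was 0.023, with 49.7% of the same sign.

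Rnase12, a member of the ribonuclease A family, was called lower in MP cells (-2.17 ± 0.22, adjusted p = 0.0145). There it read 2.57 to 2.94 on the Parp-2-/- and 4.32 to 5.52 on the WT arrays; all 4 Parp-2-/- and 2 of the 4 WT values were below the array medians, so the difference has no measured size. In LSK cells its Parp-2-/- arrays read 2.79 to 3.59, all below the array medians, and its WT arrays 3.53, 3.31, 5.17 and 3.18, so that only irradiated WT pool 1 was above background. The LSK difference was -0.66 ± 0.37 (adjusted p = 0.991).

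A direct test of the LSK difference against the MP difference called 1 of 22961 rows (0.00436%), Ccnb1ip1, and 1111 rows had an unadjusted p under 0.05. With single arrays left out the count ran from 1 to 6, and Ccnb1ip1 was called in 16 of 16 such fits. This test treats LSK and MP arrays as independent; with arrays of the same group and number taken as pairs, an alternative added after seeing the data, it also called 1 row, Ccnb1ip1 (adjusted p = 0.00203, limma). The count was 6 without unirradiated Parp-2-/- LSK pool 1, 3 without irradiated Parp-2-/- LSK pool 2 or either unirradiated WT LSK pool, and 2 without irradiated Parp-2-/- LSK pool 1. By p the next rows with 1 symbol under the naming rule were Iftap, Icam4, Myo9a, Enpp4 and Chic2, a membrane-associated protein gene. Chic2 read 7.74 to 7.90 on the Parp-2-/- and 6.80 to 7.49 on the WT LSK arrays, and its contrast of 0.92 ± 0.18 was not called (adjusted p = 0.516).

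Gene groups were described through 37 lists with 684 distinct measured genes, of which 0 were called in the 8-array limma fit and 1, Parp2, in the 16-array fit. Of these genes 12 (1.75%) lay higher without overlap and 9 (1.32%) lower, beside 1.34% and 1.36% of all rows, so the shares were close to the background. For 615 of them (89.9%) the 95% interval lay inside a 2-fold change. List medians ran from -0.264 to 0.173.

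DNA replication and S phase genes had the list with the most values above 0 among cell cycle lists. Of 40 measured genes 31 lay above 0, with a median of 0.161, 5 were higher at an unadjusted p under 0.05 and 0 were called. Over all rows 46.7% lay above 0, over rows above the array median on all LSK arrays 55.2%, and 2.23% were higher at that p. The mean level of the list was 7.46 and 7.47 in unirradiated and 7.35 and 7.43 in irradiated Parp-2-/- cells, against 7.19, 7.14, 7.24 and 7.31 in WT cells. The groups did not overlap, but the closest arrays read 7.35 in Parp-2-/- and 7.31 in WT cells. Among the 37 lists, the mean levels of the oxidative phosphorylation and PARP family lists did not overlap either. The PARP family list, which includes Parp2, was lower in Parp-2-/- cells (6.64 to 6.76 against 6.78 to 7.06). These separations of list levels were not tested. For the replication list the median difference was 0.352 without and 0.066 with irradiation. It was 0.110 after quantile normalisation, 0.137 without WT unirradiated pool 2, and 0.111 in MP cells.

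After Prim2, the replication genes with the largest differences were Gins1, Gmnn and Ccne1. Gins1, a subunit of the replicative helicase, differed by 0.74 ± 0.24. Gmnn, which encodes geminin, the inhibitor of origin licensing, differed by 0.59 ± 0.18, and Ccne1, which encodes cyclin E1, by 0.55 ± 0.15 without overlap (all adjusted p = 0.991). The helicase subunits Mcm2 to Mcm7 gave 0.05 to 0.30, and Pcna, the sliding clamp, -0.05 ± 0.15. The mitosis list had a median of 0.088 over 35 genes, with 0.229 in unirradiated and -0.065 in irradiated cells, and the kinase gene Bub1 was its highest member (0.56 ± 0.18, no overlap, adjusted p = 0.991).

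Oxidative phosphorylation genes had a median of 0.173 over 26 genes, 21 of them above 0 and 0 called. This was the highest list median as deposited and after median centring (0.191), but not after quantile normalisation or without WT unirradiated pool 2. The mean level was 9.06 and 9.0 in unirradiated and 9.05 and 8.99 in irradiated Parp-2-/- cells, against 8.90, 8.71, 8.94 and 8.93 in WT cells, so the groups did not overlap. The lowest of these arrays was WT unirradiated pool 2, and without it the median was 0.115, under those of the replication (0.137), cytokine receptor (0.121) and macrophage (0.119) lists. After quantile normalisation it was 0.106, again under these lists (0.110, 0.118 and 0.178), and in MP cells 0.004. Ndufb8, a complex I subunit, read 8.40 to 8.57 on the Parp-2-/- arrays and 8.03 to 8.11 on the WT arrays (0.40 ± 0.12, adjusted p = 0.991).

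A part of this shift was shared by well-expressed rows in general and moved with the scaling. Rows above the array median on all LSK arrays had a median of 0.026 as deposited and -0.003 after quantile normalisation. For ribosomal proteins the scaling decided the count: 90.5% of 21 genes lay above 0 as deposited, with a median of 0.075, and 57.1% after quantile normalisation, with a median of 0.002. No direction is therefore given for ribosomal proteins.

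Immediate early genes, whose transcripts respond within minutes to growth factors and to handling of cells, had the lowest list median. Of 24 measured genes 18 lay below 0, with a median of -0.264 and 0 calls, and with -0.232 in MP cells. The mean level was 7.47 and 6.94 in unirradiated and 6.10 and 6.45 in irradiated Parp-2-/- cells, and 7.40, 7.59, 6.28 and 6.57 in WT cells. The genotypes overlapped, and without unirradiated Parp-2-/- pool 2 the median was -0.024, so 1 array carried most of it. Fosb, a subunit of the AP-1 transcription factor, read 9.48, 9.34, 5.18 and 6.89 in Parp-2-/- cells and 9.62, 10.04, 7.49 and 7.86 in WT cells (-1.03 ± 0.38, adjusted p = 0.991).

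NF-kappaB and inflammatory genes had 17 of 23 values below 0, a median of -0.159 and 0 calls. Their median was -0.249 in unirradiated and 0.092 in irradiated cells, and -0.133 in MP cells. Ccl3, a chemokine that acts on stem cell proliferation, read 9.62, 8.82, 7.03 and 7.67 in Parp-2-/- cells and 9.88, 9.84, 8.36 and 7.96 in WT cells. Within each irradiation state the Parp-2-/- pools were lower, and the difference was -0.73 ± 0.22 in LSK (adjusted p = 0.991) and -0.97 in MP cells. The inhibitor gene Nfkbia differed by -0.49 ± 0.21.

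The p53 target lists were centred near 0 over both states. The arrest and feedback list had a median of -0.025 over 30 genes and the apoptosis list -0.023 over 18, with 0 calls in each. The target genes Mdm2 (-0.13 ± 0.13), Ccng1 (0.06 ± 0.17) and Phlda3 (0.16 ± 0.17) were close to 0. Others of the arrest list lay further out. Ei24, its highest member, differed by 0.57 ± 0.31 (0.23 without WT unirradiated pool 2) and Btg2 by -0.38 ± 0.29. Zmat3, a zinc finger splicing regulator, had the lowest value of the arrest list (-0.71 ± 0.24, adjusted p = 0.991). Without irradiation 2 Parp-2-/- values and 1 WT value were below the array medians, so the difference of -0.32 there has no measured size. The difference in irradiated cells was -1.10, and the interaction of -0.78 ± 0.42 was not called (limma, adjusted p = 0.999).

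Among the apoptosis targets, Pmaip1, which encodes Noxa, read 5.07, 4.55, 6.72 and 7.03 in Parp-2-/- cells and 5.29, 5.31, 7.24 and 7.25 in WT cells. The Parp-2-/- value of 4.55 was below the array median. Pmaip1 was lower in Parp-2-/- cells within each state, by -0.49 and -0.37, and not called (-0.43 ± 0.15, adjusted p = 0.991). Bbc3, which encodes Puma, differed by -0.17 ± 0.15, and Fas, the death receptor gene, by -0.01 ± 0.28. Trp53i11 was the lowest member (-0.57 ± 0.18), without overlap. Of the pro-survival genes, the lowest was Bcl2l1, which encodes Bcl-xL of the BCL2 family (-0.51 ± 0.23, and -0.75 without WT unirradiated pool 2). The highest was Birc5, which encodes survivin of the inhibitor of apoptosis family (0.42 ± 0.16), and neither was called.

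Repair of double-strand breaks gave differences in both directions, with 15 of 29 genes above 0, a median of 0.027 (-0.059 without WT unirradiated pool 2) and 0 calls. The checkpoint kinase gene Atm differed by 0.41 ± 0.15 and the recombination motor gene Rad54l by -0.56 ± 0.21 (both adjusted p = 0.991). Fanconi anaemia genes had a median of 0.070 over 14 genes, all 14 with a 95% interval inside a 2-fold change, and nucleotide excision repair genes 0.064 over 19.

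Stem cell genes as a list lay close to 0. Of 29 stem cell genes 13 lay above 0 and 16 below, with a median of -0.030, 28 intervals inside a 2-fold change and 0 calls. Hlf differed by -0.05 ± 0.16, Meis1 by -0.14 ± 0.16, Kit by -0.08 ± 0.15 and Cd34 by -0.14 ± 0.15. Flt3, the receptor of lymphoid-primed progenitors, differed by 0.28 ± 0.13 (adjusted p = 0.991). Hoxa5 was the lowest of the list (-0.56 ± 0.23) and Hoxa10 the highest (0.34 ± 0.17).

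Lists of lineage markers differed in their medians, with 0 calls in any. The granulocyte and monocyte list had a median of 0.028 and the erythroid list 0.063 (0.108 without WT unirradiated pool 2). Ms4a6c, a monocyte membrane protein gene, read 8.40, 7.48, 7.81 and 7.56 in Parp-2-/- cells and 7.29, 6.97, 7.06 and 7.22 in WT cells (0.68 ± 0.21, no overlap, adjusted p = 0.991), while the granule genes Mpo and Prtn3 differed by 0.01 ± 0.13 and 0.02 ± 0.20. Itgb3, the integrin beta 3 gene of megakaryocytes, read 5.27, 5.86, 6.12 and 5.71 in Parp-2-/- cells and 6.32, 6.15, 6.34 and 6.28 in WT cells (-0.53 ± 0.17, no overlap, adjusted p = 0.991).

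The macrophage list had 13 of 18 values above 0, beside 46.7% of all rows, and a median of 0.156. The median was 0.178 after quantile normalisation, 0.107 to 0.195 with any array left out and -0.048 in MP cells. Its mean level was 4.67 and 4.90 in unirradiated and 4.99 and 5.13 in irradiated Parp-2-/- cells, against 4.59, 4.63, 4.86 and 4.97 in WT cells, so both Parp-2-/- pools were above both WT pools within each state. These levels are near the array medians, 6 of the 18 genes were below them on all 8 arrays, and the defining gene Adgre1 was below background in both genotypes. Spic, a transcription factor of red pulp macrophages, had the list's highest value and a wide error (0.86 ± 0.57). The part of macrophage markers in other differences was not tested.

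Mean levels of the B cell, T and NK cell, neutrophil and endothelial lists were 4.31 to 4.91 on the LSK arrays, near or below the array medians. Their defining genes Cd79a and Ly6g read below the medians on all 8 arrays, but some members were well above them. In the B cell list 5 of 17 genes were above the medians on all 8 arrays, in the T and NK cell list 4 of 19, in the neutrophil list 2 of 16 and in the endothelial list 5 of 17. Vpreb1, the surrogate light chain gene of early B cells, read 5.19 to 9.32, highest in irradiated Parp-2-/- pool 2. Thy1, a surface protein gene of T cells and some progenitors, read 5.66 to 7.97, highest in WT unirradiated pool 2. The T and NK cell list had 15 of 19 values below 0 and a median of -0.114, which was -0.030 without that pool, and its share above 0 was 21.1% as deposited and 36.8% after quantile normalisation. Mast cell and basophil genes had a median of -0.118 and a mean level of 4.86 to 5.37. The share of the 13 genes above 0 moved with the scaling, from 15.4% as deposited to 30.8% after median centring and 38.5% after quantile normalisation. Ms4a2, the beta chain gene of the IgE receptor, lay lower without overlap on values below the array medians in all 8 arrays. The part of these markers in other differences was not tested. H2-Oa, a subunit of the H2-O modulator of MHC class II loading, read 4.35, 5.23, 4.04 and 5.41 against 6.44, 5.83, 5.76 and 5.57 (-1.14 ± 0.32, no overlap, adjusted p = 0.991), with 2 Parp-2-/- values below the array medians, so its size is not measured.

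**Figure D5:**
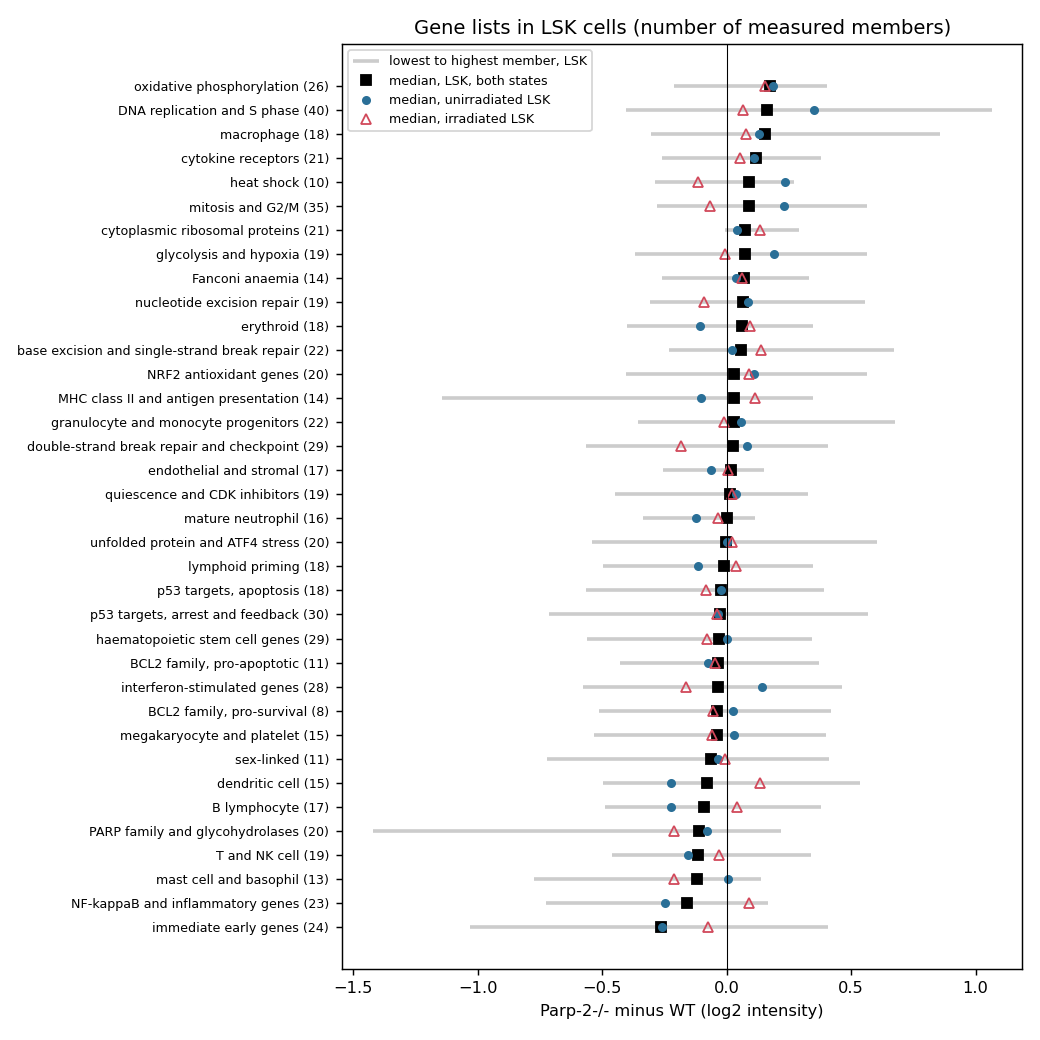
Genotype difference (horizontal axis, Parp-2-/- minus WT, log2 intensity) of the 36 gene lists with more than 1 measured member (vertical axis, number of measured members in brackets). Grey bars run from the lowest to the highest member, squares are medians over both states, circles over unirradiated and triangles over irradiated LSK cells; the squares lie between -0.264 and 0.173, and for some lists circle and triangle lie on opposite sides of 0, as for the NF-kappaB genes at -0.249 and 0.092.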

How the data were processed

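RNA of 8 LSK and 8 MP pools was amplified from 100 to 300 ng and hybridised to Affymetrix mouse gene arrays, per the labels' protocols. The deposited values are log2 intensities made by the authors with RMA, and affy 2.10, R 2.15 and limma stand beside RMA in the submitters' processing notes, with no role for each. The log base was read from the values (1.12 to 13.37). Neither the genome build nor the set of arrays in the RMA run is stated in the sources used here. Of 34760 rows, 21640 carried 1 symbol, 1321 several and 11799 none. The number of arrays limits the precision.

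Values were used as deposited in limma 3.58.1 under R 4.3.3 (genotype plus irradiation, 5 residual and 4.05 prior degrees of freedom, two-sided tests), tested on simulated data. Genes on several rows are represented in lists by the row of highest mean. Promoter windows are from RefSeq GRCm38.p6.

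Named genes were Parp2, Parp1 and Parg, 12 rows per direction without overlap by p, up to 3 members of each list, 6 neighbours of Parp2 per side, and the 5 rows of smallest p of the contrasts between states and between cell types. Predicted, small RNA, histone and receptor family genes were skipped. Members and lists were chosen with earlier results of these data known. Same-numbered pools did not deviate together across groups in LSK cells (correlations -0.077 to 0.047); in MP cells the correlations were -0.029 to 0.227. Between LSK and MP cells of the same group they were -0.005 to 0.111. Alternatives were other arrays in the fit, an interaction, a replicate block, quantile and median scaling, a filter, all rows, a variance trend, single states and leaving out each array. Figures were drawn with matplotlib 3.10.9.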

Additional observations from a re-analysis of the deposited data

Results flagged for a closer look

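The genotype difference of Ccnb1ip1 differed between the cell types by a test of the difference itself. The LSK minus MP contrast was -3.09 ± 0.19 (adjusted p = 2.96e-05, limma on 16 arrays), from 0.58 in LSK cells, where all 8 values were below the array medians, and 3.67 in MP cells. It was called in 16 of 16 fits that left out 1 array, with values of -3.23 to -2.95 and adjusted p of up to 0.00036.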

How the results depend on the processing

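The fit to all 16 arrays moved the count of called rows for the genotype difference in LSK cells from 0 to 11, and for the interaction with irradiation from 0 to 2. Its shared estimate of the spread assumes that LSK arrays vary like MP arrays. They varied more, with a median standard error of 0.172 against 0.105, so that fit sets the error of LSK differences too low at the median row. All other alternatives gave 0 calls for the genotype difference: an interaction term (smallest adjusted p 0.361), quantile normalisation (0.392), median centring (0.468), a filter on dim rows (0.402), all 34760 rows (0.104), a variance trend with robust estimation (0.238), and unirradiated (0.909) or irradiated (0.764) arrays alone. Leaving out each array gave counts of 0 to 0, and for the interaction 0 to 0, while Parp2 ran from -1.60 to -1.24 in the permutation test. The LSK minus MP contrast called 1 to 6 rows, with 6 without unirradiated Parp-2-/- LSK pool 1, 3 without irradiated Parp-2-/- LSK pool 2 or either unirradiated WT LSK pool, and 2 without irradiated Parp-2-/- LSK pool 1. MP cells alone gave 1 to 4, with 1 without irradiated Parp-2-/- pool 1 or 2 or irradiated WT pool 2. With the pool number as a replicate block, the LSK fit called 0 rows (smallest adjusted p 0.554, Parp2 -1.42) and the contrast of cell types kept its 1 call, Ccnb1ip1 (-3.09), while the MP fit called 6 rows in place of 4. The numbers are not shown to pair pools across groups; whether LSK and MP pools of a group and number share animals is not given, the Y-linked readings of WT unirradiated pool 2 were high in both, and with such pairs the contrast called 1 row. The block and left-out arrays for the interaction and the MP fit, and left-out arrays and pairs for the contrast, were chosen after seeing the data. Of 162 named genes, 37 rows changed sign in at least 1 fit without passing the test there, and 0 reversed a called direction. Signal near background bounds the sizes given for dim rows, and the cause of these changes was not tested.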
